A study of Mus musculus with 8 samples.

Results

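The Polycomb repressor genes described here are 10 genes that encode subunits of the Polycomb complexes: Ezh1, Ezh2, Eed, Suz12 and Jarid2 for Polycomb repressive complex 2 (PRC2), and Bmi1, Rnf2, Ring1, Cbx7 and Cbx2 for Polycomb repressive complex 1 (PRC1). They were taken by name from the GENCODE annotation of the mouse build mm9, which holds 37273 genes on the autosomes, X and Y, and all 10 names matched a single gene. The data come from chromatin immunoprecipitation of BRG1, an ATPase of the SWI/SNF chromatin-remodelling complex, followed by sequencing, in injured adult mouse hearts. C57BL/6 mice aged 10 to 12 weeks received intraperitoneal thymosin β4 (Tβ4) at 12 mg per kg, or PBS as the vehicle, each day for 1 week, then a myocardial infarction (MI) by permanent tying of the left anterior descending artery. The age and the strain name are those of the sample labels. The paper gives an older range for its infarction experiments, and names the J substrain for its primed wild-type mice. Mice were injected again on days 0 and 2, and hearts were taken on day 4. Each treatment gave 2 BRG1 libraries and 2 input libraries, 8 libraries in all. The values below rest on 1 list, of the regions that the authors called for BRG1 against input after Tβ4 priming and MI, and the PBS-primed data were not used here. The list gives positions only, with no height, fold enrichment or p-value. It does not separate the duplicates, and whether a library pooled several hearts is not stated. Neither the depth of sequencing nor the replicate error is therefore known, and no test between groups or genes was made.

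Polycomb proteins keep developmental genes silent. PRC2 methylates lysine 27 of histone H3, and PRC1, whose CBX subunits can bind that mark, ubiquitinates histone H2A and compacts chromatin. SWI/SNF remodellers move or evict nucleosomes and in many settings act against Polycomb repression, and both are needed for normal heart development. Whether the complexes oppose each other was not measured in these libraries, which show where BRG1 regions lay over the genes that encode the Polycomb subunits.

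Regions were described over a window made of the gene body with 5 kb flanks. The covered share is the percentage of the bases of a window that lie inside regions. To place a gene, its covered share was ranked among the 200 annotated genes of the most similar length. The resulting percentile is a description and not a test. Over the 10 windows lay 149 regions, and no region was shared between windows. Their median length was 570 bp, against 600 bp for the whole list of 524614 regions, and they ranged from 210 bp to 14070 bp. Together they covered 30.9% of the 568474 bases in the windows, against 27.3% in the windows of the 22367 protein-coding genes pooled in the same way. The whole list covered 25.8% of the genome. Jarid2 has by far the longest window, and without it the pooled share of the other 9 genes was 24.5%. A region was present in the window of all 10 genes, as it was for 97.5% of protein-coding genes, so that presence alone sets no gene apart.

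**Figure D1:**
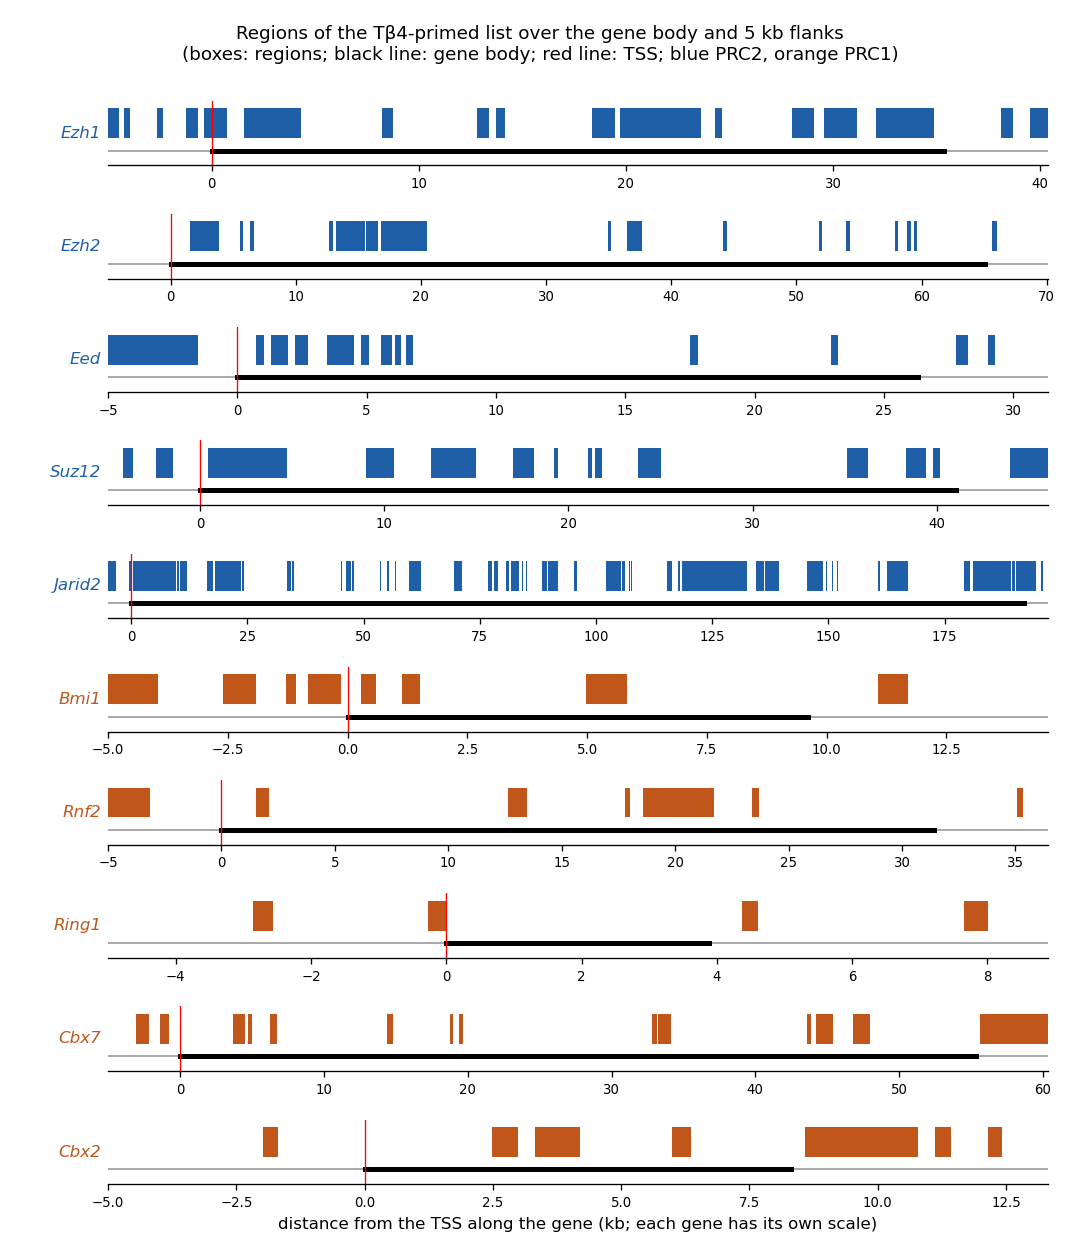
Regions of the Tβ4-primed list (boxes) along the gene body (black line) and 5 kb flanks of the 10 genes, against distance from the TSS in kb, each gene on its own scale. The 49 regions of Jarid2 fill much of its window, whereas Ring1 has 4 short regions, all outside the gene body.

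Ezh1 encodes the H3K27 methyltransferase that predominates over its relative EZH2 in many adult, non-dividing tissues. The gene lies on the minus strand at chr11:101052429-101087777 and spans 35349 bp. Its window held 17 regions, of which 11 touched the gene body, and they covered 42.8% of the bases. Ezh1 thus had the highest covered share of the 10 genes, at a percentile of 88 among genes of like length, whose median was 23.9%. By number, 0.375 regions per kb gave a percentile of 95.5. A region of 1110 bp lay over the TSS, from −372 bp to 737 bp relative to the start. It held the starts of all 3 annotated coding transcripts, which lie within 37 bp of each other. Another region of 2730 bp, in intron 1, began 1578 bp downstream. The longest region at Ezh1, of 3930 bp, touched exons 11 and 12 of the longest coding transcript, and a region of 2790 bp near the end of the gene touched exons 19 to 21. Exons of any annotated transcript were covered more than introns at Ezh1, at 59.1% against 41.1%. Of the 10 genes this held only at Ezh1 and Jarid2. It did not hold there for coding bases alone, of which 37.5% were covered at Ezh1.

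The 250 bases just upstream of the Ezh1 TSS, on the minus strand of mm9 at chr11:101087778-101088027, are printed because they lie wholly inside the region over the start. They hold 14 CpG dinucleotides, which are in capitals, and overlap no annotated exon.
Ezh1 promoter: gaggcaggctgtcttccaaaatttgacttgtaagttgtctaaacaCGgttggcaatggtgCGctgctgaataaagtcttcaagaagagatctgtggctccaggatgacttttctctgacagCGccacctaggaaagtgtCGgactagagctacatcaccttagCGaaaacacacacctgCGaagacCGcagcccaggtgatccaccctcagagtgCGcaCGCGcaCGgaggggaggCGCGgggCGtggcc

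Ezh2 encodes the H3K27 methyltransferase that is typical of dividing and embryonic cells. It lies on the minus strand at chr6:47480273-47545340 and spans 65068 bp. Regions numbered 16 in its window, 15 of them touching the gene body, but they covered 18.1% of the bases, a percentile of 18.5. The low share went with short regions, whose median length at Ezh2 was 300 bp. By number the gene had 0.213 regions per kb, a percentile of 41.5. No region lay in the 5 kb upstream, where the nearest one was 9700 bp from the TSS. Downstream, a region of 2310 bp in intron 1 began 1521 bp from the TSS. Between 12.7 kb and 20.5 kb downstream lay a cluster of 4 regions, the longest of 3630 bp, which touched exons 2 and 3. The longest stretch without a region followed it, 14460 bp from 20.5 kb to 34.9 kb. The start of an alternative coding transcript, 17681 bp downstream of the gene start, lay inside the region of 3630 bp, and 71.1% of the 10 kb around that start was covered, against 23.1% around the gene start. The pair of Ezh genes therefore differed in covered share in these hearts, 42.8% at Ezh1 and 18.1% at Ezh2, with no error known for either value. A lincRNA gene, Gm17629, starts inside the Ezh2 body, with no region over its start.

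Of the short regions in the introns of Ezh2, the one nearest the TSS has 270 bp, lies in intron 1 on the minus strand of mm9 at chr6:47539560-47539829, 5511 to 5780 bp downstream, and overlaps no annotated exon. It is shown because it holds a match to the YY1 letters GCCATNTT, in capitals, at position 58. Such a match was present in 6.03% of the 46085 regions of this length in the list. The regions picked by the same rule of length and position at Eed, Suz12, Jarid2, Rnf2 and Cbx7 held none of the letters searched and are not printed.
Ezh2 intronic region: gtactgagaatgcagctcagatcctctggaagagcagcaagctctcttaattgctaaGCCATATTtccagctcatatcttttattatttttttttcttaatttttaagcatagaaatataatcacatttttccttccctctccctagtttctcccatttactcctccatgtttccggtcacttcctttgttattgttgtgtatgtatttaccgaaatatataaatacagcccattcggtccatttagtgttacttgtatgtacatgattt

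Eed encodes the subunit of PRC2 that binds trimethylated H3K27 and stimulates the enzyme. It lies on the minus strand at chr7:97103166-97129493. Its window held 13 regions and was covered by 23.7%, close to the median of genes of like length, 25.8%, and at a percentile of 44. The coverage was concentrated around the 5' end. Within 5 kb of the TSS, 6 regions covered 62.5% of the bases, a percentile of 94. Upstream, a region of 4950 bp reached from −6456 bp to −1507 bp relative to the TSS, and 69.9% of the 5 kb upstream was covered. Downstream, 8 regions lay between 714 bp and 6803 bp from the TSS, 1 of which touched exon 2. The TSS itself lay outside regions, in a gap of more than 2 kb. The rest of the gene had few regions, with none over 10680 bp from 6.80 kb to 17.5 kb.

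Suz12 encodes a subunit without which PRC2 is unstable and inactive. It lies on the plus strand at chr11:79806608-79847625. The 14 regions of its window covered 34.6% of the bases, a percentile of 78 and just above the upper quartile of genes of like length, 33.7%. A region of 4260 bp began 442 bp downstream of the TSS, touched exons 1 to 3 and covered all of intron 1. In the 5 kb downstream of the TSS 85.2% of the bases were covered, against 30% in the 5 kb upstream. The gene ended in further regions, of 1110 bp and 390 bp over exon 16, and a region of 2550 bp began beyond its 3' end. A lincRNA gene, Gm16706, starts inside the Suz12 body and had no region over its start.

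Jarid2 encodes a DNA-binding cofactor that helps to bring PRC2 to its targets and is required in heart development. It is the longest of the 10 genes, 192170 bp on the plus strand at chr13:44824843-45017012. Its window held 49 regions that covered 42.5% of the bases, or 85837 bp. This share had the highest percentile of the 10 genes, 98, above an upper quartile of 32.1% for genes of like length. The count, at 0.242 regions per kb, had a lower percentile of 78, since the regions at Jarid2 were long. A region of 720 bp lay over the TSS, from −583 bp to 136 bp relative to the start. From 377 bp to 9676 bp downstream ran a region of 9300 bp, which is longer than 99.4% of all regions of the list, and 95.2% of the 5 kb downstream of the TSS was covered. Farther on, a region of 14070 bp, from 118 kb to 133 kb downstream, contained exon 3 and was longer than 99.9% of all regions. A region of 7560 bp near the 3' end touched exons 12 to 17, and the next long one, of 4230 bp, crossed the end of the gene in exon 18. Of the exonic bases of Jarid2 66.9% were covered, against 40.8% of the intronic bases, an order seen elsewhere among the members only at Ezh1. Of its coding bases alone 36.1% were covered, below the intronic share. The longest stretch without a region was 11940 bp, from 167 kb to 179 kb downstream. A snoRNA gene, SNORA61, starts inside the body, with no region over its start. Coding transcripts of Jarid2 have several starts, none of them at the gene start itself. The one that begins 61 bp downstream lay inside the region over the TSS, and the one that begins 321 bp downstream lay outside regions. Those that begin 1300 bp to 1813 bp downstream lay inside the region of 9300 bp. A pair that begins 111217 bp and 111340 bp downstream also lay outside regions, with 14.2% and 15.4% of the surrounding 10 kb covered.

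The 250 bases upstream of the Jarid2 TSS lie inside the region over the start, on the plus strand of mm9 at chr13:44824593-44824842, and are printed beside those of Ezh1, since these were the 2 members with a region over the TSS. They hold 4 CpG dinucleotides, in capitals, a GC content of 43.6% against 55.2% at Ezh1, and no annotated exon. The start used is the annotated 5' end of the gene. The coding transcripts of Jarid2 begin 61 bp or more downstream of it, whereas a coding transcript of Ezh1 begins at its gene start.
Jarid2 promoter: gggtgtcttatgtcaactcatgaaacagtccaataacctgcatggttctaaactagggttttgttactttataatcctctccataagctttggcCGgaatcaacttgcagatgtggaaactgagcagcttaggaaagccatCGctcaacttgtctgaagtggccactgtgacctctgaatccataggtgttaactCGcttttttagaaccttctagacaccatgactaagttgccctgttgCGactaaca

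Bmi1 encodes a PCGF subunit of PRC1 that activates its ubiquitin ligase. The gene is short, 9612 bp on the plus strand at chr2:18598645-18608256. Its window held 8 regions that covered 24.4% of the bases, a percentile of 50.5 among genes of like length. By number, 0.408 regions per kb was the highest value of the 10 genes, at a percentile of 84.5. Upstream of the TSS lay 4 of the 8 regions, and 52.7% of the 5 kb before the TSS was covered, against 14.1% of the 5 kb after it. They flanked the TSS closely without reaching it: a region of 690 bp ended 146 bp upstream and a region of 330 bp began 275 bp downstream. The upstream flank is shared with Commd3, which starts on the same strand at −4634 bp relative to Bmi1 and had a region of 1080 bp over its own TSS, so the upstream regions cannot be assigned to Bmi1 alone.

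Rnf2, also called Ring1b, encodes a catalytic E3 ligase subunit of PRC1. It lies on the minus strand at chr1:153316536-153347953. The 7 regions of its window covered 17.2% of the bases, a percentile of 21.5, and at 0.169 per kb their number was the lowest of the 10 genes. The nearest regions lay 3167 bp upstream and 1544 bp downstream of the TSS. The longest, of 3120 bp, lay in intron 1, which is 22093 bp long and was covered by 21.5%. No exonic base of Rnf2 was inside a region.

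Ring1, the paralogue of Rnf2, encodes the alternative E3 ligase subunit. It is the shortest of the 10 genes, 3889 bp on the minus strand at chr17:34157737-34161625, in the major histocompatibility region. Its window held 4 regions, of 240 bp to 360 bp, and had the lowest covered share, 8.42%, at a percentile of 21. None of the 4 regions touched the gene body. By covered share of the window the ligase genes Rnf2 and Ring1 had similar percentiles, 21.5 and 21, but by regions per kb these were 20 and 56, and for the 10 kb around the TSS 52.5 and 28.5. A region of 270 bp lay from −274 bp to −5 bp relative to the TSS, so that Ring1 missed being counted as a gene with a region over its TSS by 5 bp. The microRNA gene Mir219-1, annotated with starts at −390 bp and −412 bp relative to Ring1, and H2-Ke6, at −3380 bp, also start inside the window on the same strand, and none of these starts lay inside a region.

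The region next to the Ring1 TSS is printed whole because its edge decides whether the start counts as covered. It lies on the minus strand of mm9 at chr17:34161630-34161899, overlaps no annotated exon, and has a GC content of 75.2% with 34 CpG dinucleotides, in capitals.
Ring1 upstream region: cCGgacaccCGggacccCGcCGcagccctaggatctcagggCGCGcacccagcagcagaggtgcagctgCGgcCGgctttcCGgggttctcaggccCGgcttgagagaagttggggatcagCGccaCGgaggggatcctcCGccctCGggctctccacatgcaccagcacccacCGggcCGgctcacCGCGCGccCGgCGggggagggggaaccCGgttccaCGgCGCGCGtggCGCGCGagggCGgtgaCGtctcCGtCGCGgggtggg

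Cbx7 encodes a chromodomain subunit that binds methylated H3K27 and recruits PRC1. It lies on the minus strand at chr15:79746237-79801549. The 14 regions in its window covered 19.4% of the bases, a percentile of 22.5. Much of this lay outside the gene, since a region of 5310 bp filled 94.7% of the 5 kb downstream flank, while the gene body was covered by 11.6%. The annotated gene start belongs to long transcripts, and 4 shorter coding transcripts begin 37220 bp to 38579 bp farther downstream. Around the gene start 25.8% of the 10 kb was covered, and around the starts of the shorter transcripts between 5.80% and 12.0%. No start of Cbx7 lay inside a region. Nor was any region found over 13140 bp in intron 1, from 19.7 kb to 32.8 kb downstream.

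Cbx2, a relative that compacts chromatin and is best known from development, lies on the plus strand at chr11:118884276-118892584. Its window held 7 regions, which covered 26.4% of the bases, a percentile of 56. The regions leaned towards the 3' side. The downstream flank was covered by 55.8%, mainly by a region of 2220 bp, against 6.00% of the upstream flank. No region lay between 1687 bp upstream and 2484 bp downstream of the TSS, the longest uncovered stretch of the window. A region of 360 bp lay wholly inside exon 5. Cbx8, which was named after its values were seen, lies on the opposite strand with its 3' end at 118897619, beyond the Cbx2 window, so the regions of the downstream flank lie between the 3' ends of these genes.

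Around the start sites, a region lay over the TSS of 2 of the 10 genes, Ezh1 and Jarid2. Among protein-coding genes the share with a region over the TSS was 24.2%, so that 2 of 10 was near the background. With a region anywhere within 1 kb of the TSS, 7 of the 10 genes counted, beside 55.4% of protein-coding genes. The genes without one were Ezh2, Rnf2 and Cbx2. All 10 genes had a region within 5 kb of the TSS, where the share of protein-coding genes was 90.5%. When only regions of at least 1200 bp were kept, the number of genes with a region over the TSS fell to 0 of 10, beside 16.5% of protein-coding genes.

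**Figure D2:**
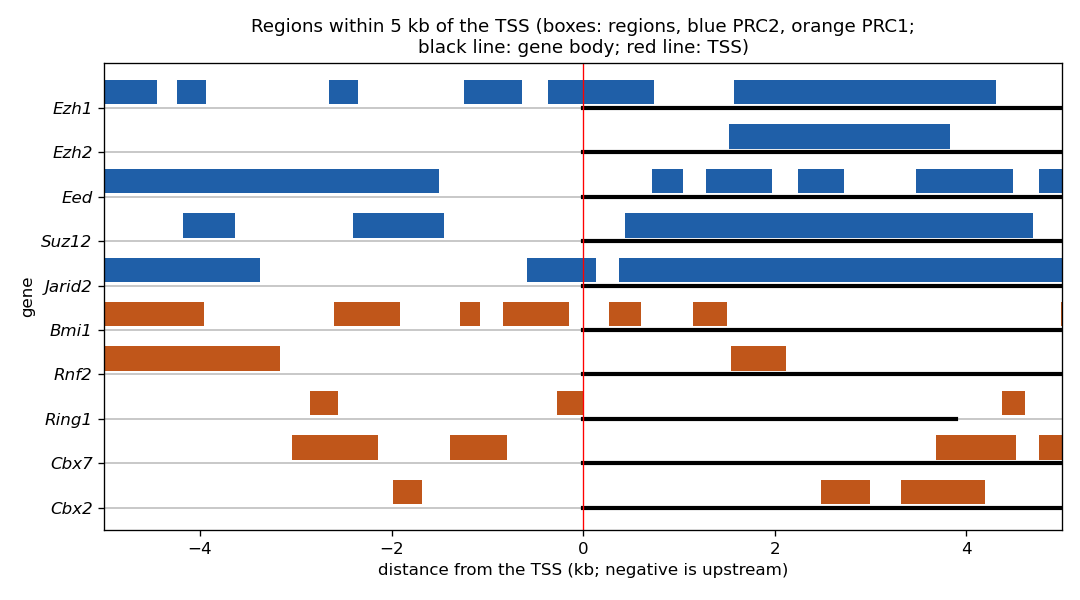
Regions (boxes) within 5 kb of the TSS of the 10 genes, on a common scale in kb with upstream to the left. Regions cross the TSS at Ezh1 and Jarid2, end 5 bp before it at Ring1, and leave the 5 kb upstream of Ezh2 empty.

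In bases, regions covered 37.7% of the 10 kb around the starts of the 10 genes, against 26.7% for protein-coding genes pooled in the same way. Nearer the start the shares were closer, 29.7% against 26.5% within 2 kb of the TSS and 25.8% against 25.9% within 1 kb. With only regions of at least 600 bp, the shares of the 10 kb were 32.2% and 22.6%. With at least 1200 bp they were 20.9% and 18.4%, so the gap was much narrower at that length. Over the 10 kb, the median gene among the 10 had 29.6%, and the median protein-coding gene 22.2%. The medians of the other Polycomb genes and the SWI/SNF genes described below were 32.5% and 27.3%. Among genes of like length, the median percentile of the 10 genes was 57. The higher pooled share of the 10 genes was that of 4 PRC2 genes. Jarid2 had 69.7%, Eed 62.5%, Suz12 57.6% and Ezh1 55.9%, at percentiles of 94.5, 94, 91 and 87 among genes of like length. Ezh2 had 23.1%. The PRC1 genes lay between 8.10% at Ring1 and 33.4% at Bmi1. Pooled, the share was 53.8% around the PRC2 starts and 21.6% around the PRC1 starts. The profile in bins of 500 bp was uneven for so few genes. It was highest, at 63.0%, from 3500 bp to 4000 bp downstream, and lowest, at 17.9%, from 1500 bp to 1000 bp upstream. Just downstream of the TSS, in the bin from 0 bp to 500 bp, the 10 genes had 20.9%, and protein-coding genes had their own lowest value there, 24.8%.

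**Figure D3:**
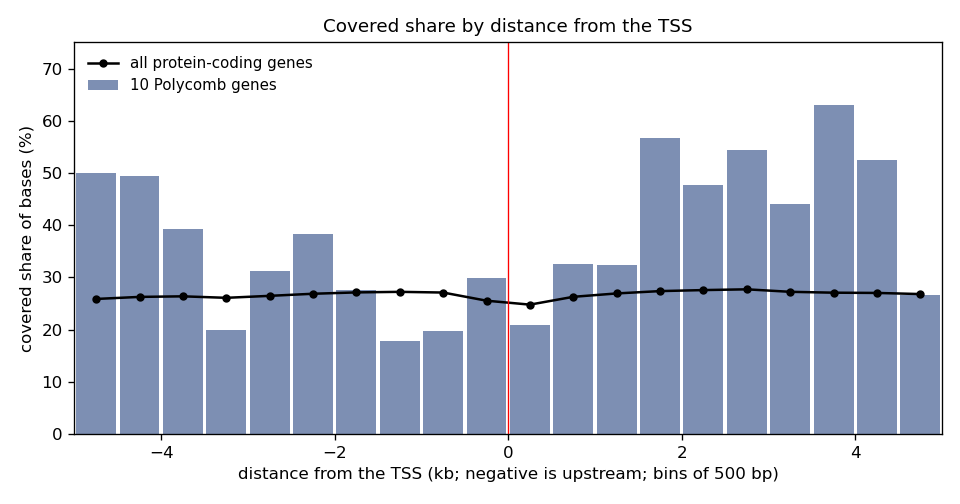
Covered share of bases (%) in bins of 500 bp against distance from the TSS in kb, for the 10 Polycomb genes pooled (bars) and all protein-coding genes (line). The bars exceed 40% in 6 neighbouring bins from 1500 bp to 4500 bp downstream and in the 2 outermost bins upstream, while the line stays between 24.8% and 27.7%.

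Over the whole windows, the order of covered share ran from Ezh1 and Jarid2 through Suz12, Cbx2, Bmi1, Eed, Cbx7, Ezh2 and Rnf2 to Ring1. The error of this order is unknown, and neighbours such as Ezh1 and Jarid2, at 42.8% and 42.5%, are not separated by it. The median percentile of the 10 genes was 47.2, near the middle of genes of like length. Above the upper quartile of genes of their length lay 3 of the 10 genes and below the lower quartile 4, where by definition about 25% of genes lie on each side, so these counts are near what any list would give. Those above, Ezh1, Suz12 and Jarid2, all belong to PRC2, and those below were Ezh2 and the PRC1 genes Rnf2, Ring1 and Cbx7. The median percentile was 78 for PRC2 and 22.5 for PRC1, with 5 genes each, but the gap depended on the measure. By regions per kb the medians were 78 and 56, and for covered share of the 10 kb around the TSS 91 and 52.5. Pooled, regions covered 35.4% of the PRC2 windows and 19.3% of the PRC1 windows. Without Jarid2 the PRC2 share was 28.5%. The measure mattered: ranked by regions per kb in place of covered share, the 10 genes had a median percentile of 74.5, and with only regions of at least 1200 bp the median percentile of covered share was 29.5.

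**Figure D4:**
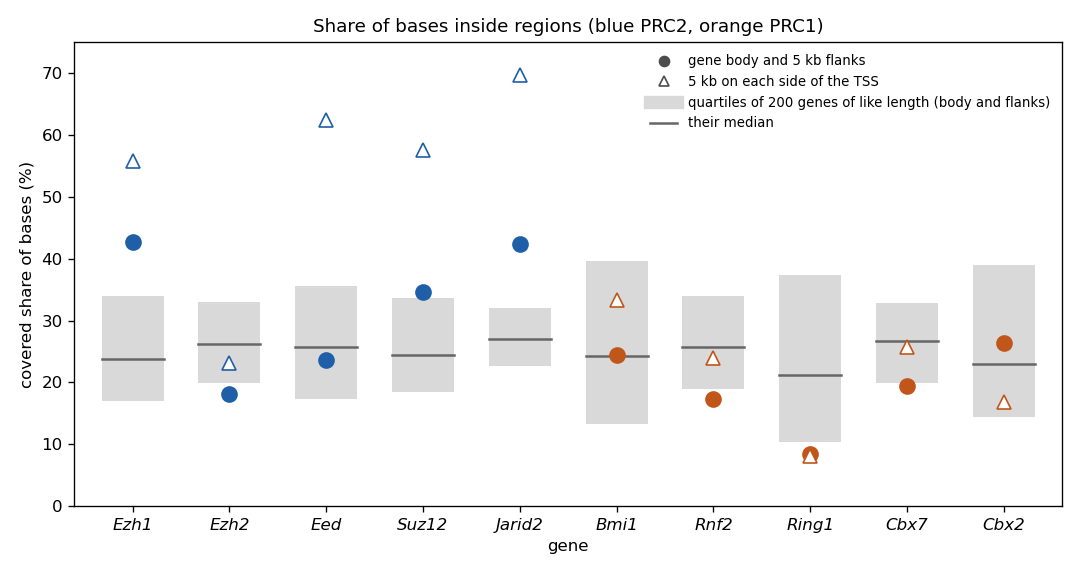
Covered share of bases (%) of the gene body with 5 kb flanks (circles) and of the 10 kb around the TSS (triangles) for the 10 genes, with the quartiles and median of the 200 genes nearest in length as grey boxes and lines. Circles lie above the box for Ezh1, Suz12 and Jarid2 and below it for Ezh2, Rnf2, Ring1 and Cbx7.

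By position in the gene, 29 of the 149 regions touched an exon of any annotated transcript, 87 lay in the gene body without touching one, and 33 lay in the flanks outside the gene body. Regions covered 30.6% of the intronic bases of the 10 genes and 30.2% of the exonic bases, with 27.5% and 26.6% over all protein-coding genes. Jarid2 set this direction, since without it the members had 22.8% and 21.1%, below the protein-coding values. Pooled, PRC2 genes had 45.5% of their exonic bases inside regions and PRC1 genes 4.68%, and of the intronic bases 34.8% and 15.4%. Without Jarid2 the PRC2 values were 35.5% and 27.3%. Gene by gene the intronic shares overlapped, since Cbx2 with 31.4% and Bmi1 with 21.4% lay above Ezh2 with 20.6% and Eed with 16.8%. Of the coding bases alone, 30.4% were covered in PRC2 genes and 8.59% in PRC1 genes. The coding share was 23.4% for the 10 genes together, below the 25.9% of all protein-coding genes, and 27.7% for PRC2 without Jarid2. Suz12 had 39.0%, Ezh1 37.5% and Jarid2 36.1%, and no coding base was covered at Rnf2 or Ring1. The coding shares overlapped too, since Cbx2 had 20.4%, above Ezh2 with 16.0% and Eed with 11.6%. The flanks of protein-coding genes were covered by 26.4%, and the pooled flanks of the members by 33.4% for PRC2 and 31.7% for PRC1. Single genes weighed on both values, which were 29.4% for PRC2 without Jarid2 and 24.1% for PRC1 without Cbx7, the latter left out after its flank was seen. Long regions were not more frequent than elsewhere: 16.8% of the 149 regions exceeded 2 kb, against 19.3% of the whole list, and 28.2% were at most 300 bp long, against 27.7%.

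When each region was assigned to its closest gene, Jarid2 was the closest gene of 123 regions and Eed of 33. Bmi1 and Ring1, with 4 regions each, had the fewest. The median was 16 for the 10 genes and 8 for protein-coding genes, which are shorter, with a median length of 15427 bp against 33384 bp. For Eed the count exceeded the 13 regions of its window, as regions far from a gene are also assigned to it by this rule.

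Base composition is a feature that the choice of genes did not use. The starts of 8 of the 10 genes were CpG-rich, defined as a GC content of at least 50% and an observed over expected CpG ratio of at least 0.6 over 500 bp on each side of the TSS, as were 44.2% of protein-coding starts. Jarid2 and Cbx7 were the others, with ratios of 0.649 and 0.456, Jarid2 falling short by its GC content of 49.3%. Only the annotated gene start was classed, and the coding transcripts of Jarid2 and Cbx7 that begin farther downstream were not. CpG-rich starts were as common in the lists described below, at 81.25% of the other Polycomb genes and 85.7% of the SWI/SNF genes. Among all protein-coding genes, a region lay over 23.4% of CpG-rich starts and 24.9% of other starts, so that the TSS itself was covered about as often in both classes. Within 1 kb of the TSS, the median covered share was higher at CpG-rich starts, 12.9%, than at other starts, 8.55%. Of the 2 genes with a region over the TSS, the annotated gene start is CpG-rich at Ezh1 and not at Jarid2. Within the windows, regions had a higher GC content than the bases around them in 4 of the 10 genes, Ezh1, Jarid2, Bmi1 and Ring1, beside 38.6% of protein-coding genes. Bmi1 had the widest gap, with 53.3% inside regions and 44.2% outside. The opposite was widest at Ezh2, with 36.5% inside and 40.9% outside. Over the genome the regions had a GC content of 41.4%, against 41.8% for all sequenced bases.

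**Figure D5:**
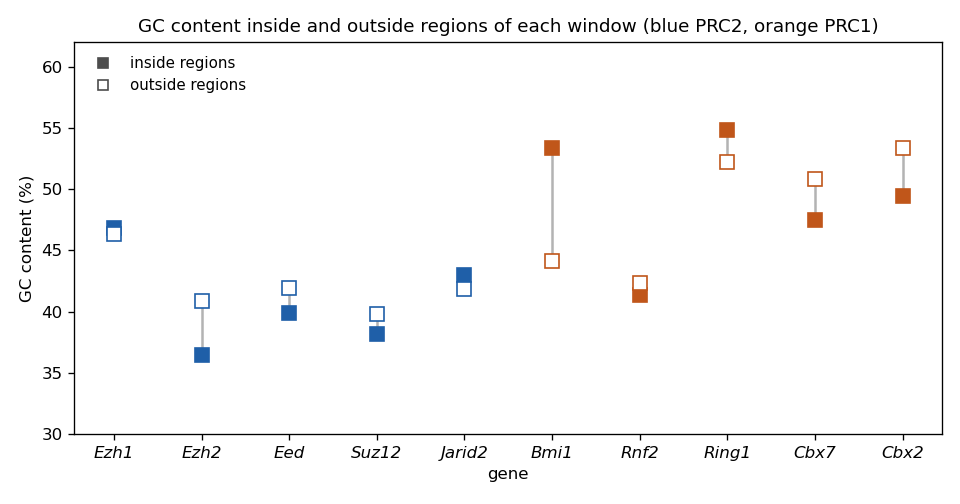
GC content (%) of the bases inside regions (filled squares) and outside regions (open squares) within the window of the 10 genes. Filled squares lie above open ones at Ezh1, Jarid2, Bmi1 and Ring1, with the widest gap at Bmi1.

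The members' regions were searched on both strands for letters of 4 kinds of factor. These were C/EBP (TTNNGCAA), AP-1 (TGANTCA), YY1 (GCCATNTT) and E2F (TTTCCCGC and TTTGGCGC), and none of the letters is contained in another. A match is a run of letters and not a site of binding. Since longer regions hold more matches, the 42 regions of at most 300 bp in the windows of the 10 genes were set beside the 145498 regions of such length in the list. The C/EBP letters were found in 4 of the 42, or 9.52%, against 11.9% of the list. The AP-1 letters were also found in 4, against 7.25% of the list, and the YY1 letters in 2, or 4.76%, against 6.07%. The E2F forms were found in 0 of the 42 regions, and in 0.126% and 0.0784% of the list. With so few regions, these shares do not set the members apart from the list. In the printed bases upstream of Ezh1 and Jarid2 none of the letters was found. Of all protein-coding promoters of 250 bp, 9.16% held the C/EBP letters, 6.00% the AP-1 letters, 3.82% the YY1 letters, and 1.08% and 0.510% the E2F forms. The printed region of Ring1 held none either, and of all regions of 270 bp 12.1% held the C/EBP letters, 7.86% the AP-1 letters, and 0.137% and 0.0955% the E2F forms.

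Beside the 10 genes stand 32 other genes of Polycomb subunits, cofactors and the demethylases and deubiquitinase that reverse their marks. Their median covered share of the window was 26.8%, beside 24.1% for the 10 genes and 25.2% for all protein-coding genes, and their median percentile was 50. By regions per kb their median percentile was 58.25, below the 74.5 of the 10 genes. A region lay over the TSS of 12 of the 32, or 37.5%, beside 24.2% of protein-coding genes. The highest percentiles belonged to Bap1, the deubiquitinase of H2A, with 86.1% of its window covered, to Phf19, a PRC2 cofactor, with 65.0%, and to Kdm6a, an H3K27 demethylase, with 43.4%. The lowest belonged to Yaf2 with 14.1%, Pcgf5 with 17.3% and Pcgf3 with 13.1%, all partners in variant forms of PRC1. Bap1, Phf19, Cbx8 with 54.2% and Kdm6a had covered shares above the highest of the 10 genes, those of Ezh1 and Jarid2.

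The SWI/SNF side was described by 21 subunit genes. Their median covered share was 28.6% and their median percentile 62, above the median percentile of the 10 Polycomb genes. A region lay over the TSS of 6 of the 21, or 28.6%, beside the same 24.2% of protein-coding genes. The highest percentile, 93, was that of Smarca4, which encodes BRG1 itself, with 40.1% of its window covered, and the lowest that of Actl6b, a subunit known from neurons, with 0.806%. Around the TSS of Smarca4, however, 4.83% of the 10 kb was covered. The highest covered share of a window in this list, 42.9%, was that of Smarcd2, beside 42.8% at Ezh1.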

How the data were processed

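BRG1 ChIP and input libraries were made by the authors from PBS- and Tβ4-primed, injured hearts, in duplicate. Reads were mapped by them with Bowtie 1.0.0 (options -m 2 and -X 2000) to mm9, and regions were called with MACS2 2.0.10; the methods name its bdgcomp function, but the list is named like a bdgdiff output for condition 1 with a cutoff of 3.0. Which function was run is therefore unsure, and the methods state no threshold. Whether and how the duplicates were merged is not given in the sources used here. The deposited list holds other values than a signal: starts and ends of regions in bp, which carry no score, count or p-value. Groups were read from the sample labels. Starts were converted to count from 1.

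Genes, transcripts and exons came from GENCODE vM1 for the same build, and sequences from that genome. The TSS is the 5' end of the annotated gene. Regions with at least 1 bp in a window were counted, covered bases were summed, and the percentile of a gene was taken among the 200 annotated genes nearest in length. The closest gene was found with bedtools 2.31.1; other steps used Python 3.11.15, numpy 2.4.6, scipy 1.17.1, pysam 0.24.0 and matplotlib 3.10.9. Counts and covered bases were tested on simulated regions, where 10000 of 10000 windows equalled a count base by base.

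The 10 members and the lists of other Polycomb and SWI/SNF genes were chosen with earlier results of these data known. Named beyond the members were the 3 highest and 3 lowest other Polycomb genes by percentile, the highest and lowest SWI/SNF gene, genes that start inside a member's window and, outside these rules, Cbx8 and Smarcd2, named after their values were seen. Printed sequences were promoters of members with a region over the TSS, and, among regions of at most 300 bp nearest the TSS that lay within 1 kb of it or in an intron, those of Ezh2, for its match to the YY1 letters, and Ring1, for its edge at the TSS. No test was run. Alternatives changed the joining, minimum length and overlap of regions, the window, the TSS used, the genes of like length and the measure.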

Additional observations from a re-analysis of the deposited data

How the results depend on the processing

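The list does not separate the duplicates, so no replicate could be left out. No paired analysis was possible because the list does not carry replicate numbers. The regions carry no score, so a minimum length took the place of a stricter threshold. Leaving out the 4 regions over 100 kb changed none of the 5 results. The counts and shares of the members could not change by this, since the longest region in their windows has 14070 bp. With regions of at least 600 bp, 74 regions remained in the windows, which covered 26.5% of the windows and 32.2% of the bases around the TSS, with a median percentile of 36.2; with at least 1200 bp, these values were 39 regions, 21.2%, 20.9% and 29.5, and 0 genes had a region over the TSS. Counts and shares fall when regions are dropped; why the median percentile fell was not tested. With regions within 500 bp joined, the covered shares rose to 33.1% and 40.4%. A region within 1 kb of the TSS gave 7 genes. The share of the windows was 30.5% over the gene body only and 29.1% with 10 kb flanks, and that around the TSS was 29.7% within 2 kb, 25.8% within 1 kb (protein-coding genes 26.5% and 25.9%) and 42.7% at the most covered coding transcript. Regions per kb gave a median percentile of 74.5; the cause was not tested. Without Jarid2, an alternative chosen after seeing the data, the shares were 24.5% and 34.1%. Across the 7 orders of covered share computed, Ezh1 or Jarid2 was the highest and Ring1 the lowest, tied with Bmi1 at 0 with regions of at least 1200 bp. The values describe 1 list of 1 condition with unknown depth and replicate error, and whole hearts mix cell types. The list covers 25.8% of the genome, and the methods state no threshold for it. A region marks where the authors called BRG1 against input, and does not show the activity of a gene.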
